A study of Mus musculus with 24 samples.

Results

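The 31 genes described here make cholesterol from acetyl-CoA, sense it, or carry it inside the cell and out of it. They were listed by symbol, and a gene was measured by the array's probe sets annotated to that symbol alone, using, of several, the one whose mean over all 24 arrays was highest. Of the 31 genes, 29 had such a probe set, among 18193 genes tested in all, while Acat2 and Nr1h2 had none and were not analysed here. The values are log2 levels after robust multi-array averaging (RMA), so a difference of 1 stands for a doubling. A level depends on the probe set as well as on the RNA, and levels are therefore compared between samples within a gene and not between genes.

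RNA was taken from cerebral cortex of adult mice heterozygous for aldh1l1-eGFP-L10a, a transgene that puts a green fluorescent tag on ribosomal protein L10a under the promoter of Aldh1l1, a folate enzyme of astrocytes. All groups carried the transgene. Pulling down the tagged ribosomes gave the bound fraction, meant to hold mRNA on astrocyte ribosomes, and the rest of the lysate gave the unbound fraction, with the RNA of other cells and any astrocyte RNA that was not pulled down. Each fraction was taken after sleep deprivation (most of the dark phase awake, then 4 h with unfamiliar objects in the light), in waking (killed at 3 to 5 am, awake for over 1 h at the end and for at least 70% of the previous 6 to 7 h) and in sleep (killed at 3 to 5 pm, asleep for over 45 min at the end and for at least 75% of the previous 6 to 7 h). The bound fraction came from 6 single animals per state and the unbound fraction from 2 pools per state, each of 3 animals (animals 4 to 6 and animals 1 to 3). Waking and sleep also differ in time of day. Sleep deprivation ended in the light, and its clock time is not given in the sources used here. In its comparisons, too, state and time of day cannot be told apart. The fractions were purified with different RNA kits, so fraction and kit cannot be told apart, and in either fraction fewer cells of a type and less RNA per cell cannot be told apart.

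Cholesterol in the brain is made locally, because lipoproteins of the blood do not cross the blood-brain barrier, and astrocytes are regarded as a main source for neurons in the adult. The mevalonate steps build isoprenoid units, which are joined to squalene, closed to lanosterol and trimmed to cholesterol. When sterol in the endoplasmic reticulum is low, SCAP carries the SREBP transcription factors (genes Srebf1 and Srebf2) to the Golgi for activation, and they then switch on synthesis genes; INSIG proteins hold SCAP back when sterol is plentiful. Oxysterols activate the LXR receptors, which switch on Apoe and the ABC transporters that load cholesterol onto lipoproteins.

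Several features of the arrays touch every result. Exactly tied values occurred in 48 of 48 pairs of arrays within a group and in 0 of 228 pairs between groups. Whether arrays were normalized group by group is not given in the sources used here, and group and run cannot then be told apart. The median gene was 0.16 log2 units higher in the bound than in the unbound fraction, and shifts between states were 0.02 to 0.30. All differences below are therefore given relative to the median of all genes tested, while calls rest on the differences as deposited. Calls are from limma with Benjamini-Hochberg adjustment over all 18193 genes at 0.05. The bound arrays also fell apart by set of animals. Between animals 4 to 6 and animals 1 to 3, 43.8% of all genes differed. Differences between states that touch this split are given with the set as a block or in each set alone. Differences between fractions are over both sets unless a set is named. Aldh1l1 lay at 10.52 to 11.27 in the bound arrays, against 6.75 to 7.23 in the unbound arrays (relative difference 3.72, SE 0.11, adjusted p = 7.44e-18). All 8 astrocyte markers were higher in the bound fraction and all 8 neuronal markers lower, as were 6 of 7 markers of mature oligodendrocytes and 5 of 7 of microglia. The 5 meningeal markers were also higher there (as the list's mean log2 level, 7.08 to 8.81 in bound and 6.30 to 6.86 in unbound arrays), and the 4 choroid plexus markers ranged widely (4.84 to 10.42 in bound and 5.13 to 7.98 in unbound arrays) with none called. Their part in the results below was not tested.

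The first comparison asked which of these transcripts were enriched on astrocyte ribosomes. Of the 29 genes, 24 were higher in the bound than in the unbound fraction averaged over the 3 states, 2 were lower, and 3 were not called. Over all genes, 42.2% were called higher and 27.2% lower. The median relative difference was 1.32 over the 29 genes and is 0 over all genes by construction. In 19 of the 29, every bound array lay above every unbound array, which was so for 17.2% of all genes, and in 1 every bound array lay below, as for 10.1% of all genes. The split of calls depends on centring. With each array centred on its median, 5049 genes were higher and 7662 lower in place of 7672 and 4955, and the list then held 23 higher and 4 lower.

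**Figure D1:**
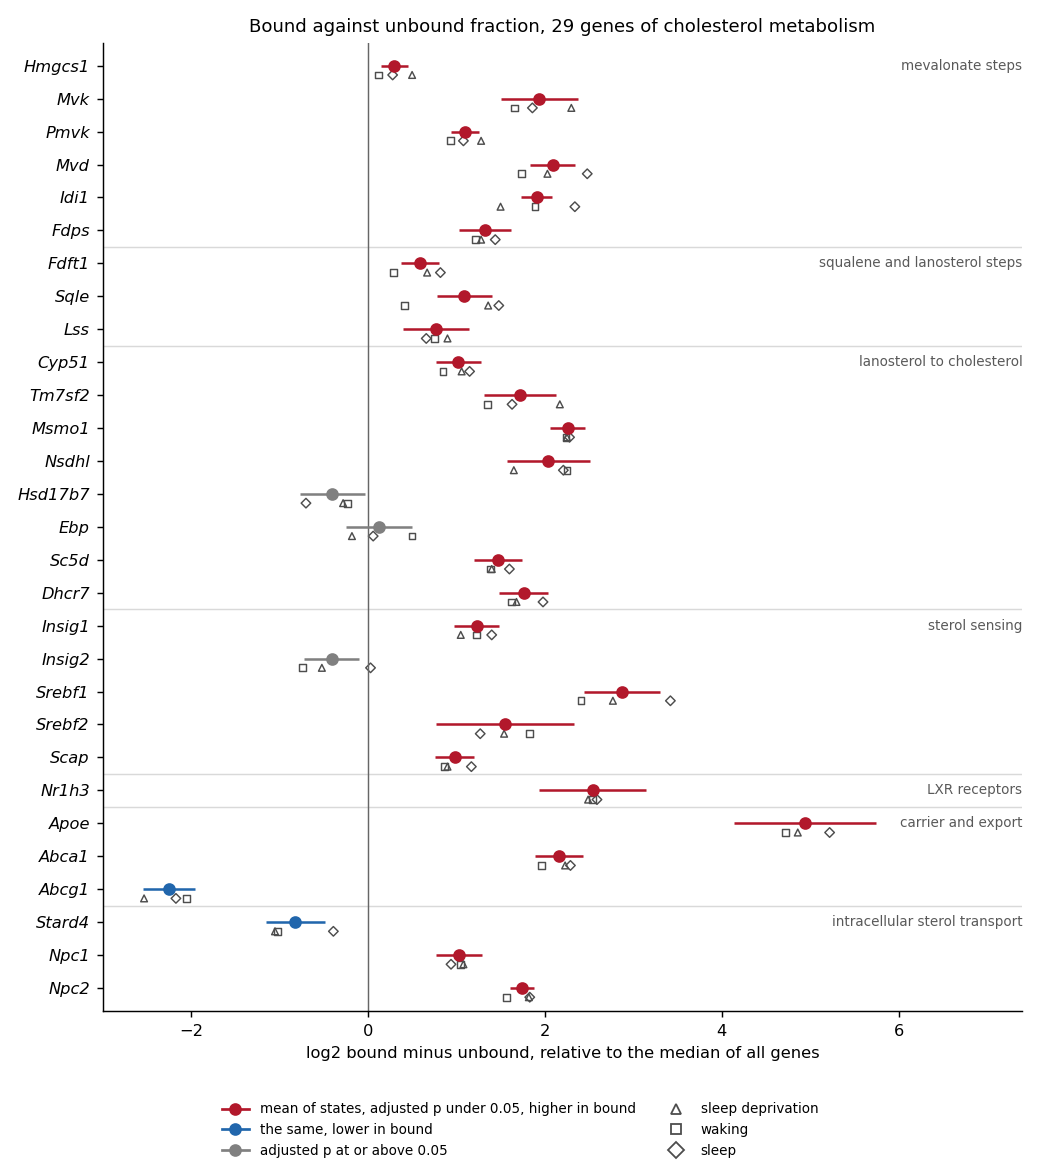
Log2 difference of bound minus unbound arrays for the 29 measured genes, relative to the median of all genes, by role from top to bottom. Filled circles with lines are the mean over the 3 states with its 95% interval, and open symbols the difference within each state; 25 of the 29 circles lie right of 0, Apoe farthest at 4.94 and Abcg1 farthest left at -2.25.

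All 17 genes that encode measured enzymes of synthesis are considered by stage. The 6 mevalonate genes were all higher in the bound fraction, with a median relative difference of 1.62. Idi1, the isomerase that makes dimethylallyl diphosphate, lay at 11.22, 11.75 and 12.09 (lowest, median and highest of 18 bound arrays), against 9.26, 9.55 and 10.18 in the 6 unbound pools. The ranges did not overlap, and the relative difference was 1.91 (SE 0.09, adjusted p = 8.76e-15). Mvd, the decarboxylase that makes isopentenyl diphosphate, was 4.25-fold higher relative to the median gene, Mvk (mevalonate kinase) 3.84-fold, Fdps (farnesyl diphosphate synthase) 2.49-fold and Pmvk (phosphomevalonate kinase) 2.14-fold. Hmgcs1, the cytosolic HMG-CoA synthase, had the smallest difference of the group. Its bound arrays ran from 12.82 through 13.19 to 13.40, against 12.43, 12.78 and 12.89 in the unbound pools, and the ranges overlapped. The relative difference of 0.30 (SE 0.08, adjusted p = 2.37e-05) was lost when arrays were centred on their median (adjusted p = 0.125).

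The 3 genes from farnesyl diphosphate to lanosterol were also all higher in the bound fraction, by a median of 0.77. Sqle, the rate-controlling squalene epoxidase, was 2.12-fold higher, Lss (lanosterol synthase) 1.71-fold and Fdft1 (squalene synthase) 1.51-fold, each with bound and unbound arrays that overlapped. Of the 8 genes from lanosterol to cholesterol, 6 were higher, with a median of 1.59 over all 8. Msmo1, the sterol C4-methyl oxidase, stood at 10.26, 10.72 and 11.11 in the bound arrays and at 8.12, 8.32 and 8.45 in the unbound pools. That gap of 2.26 (SE 0.10, adjusted p = 2.21e-15) was almost the same in the 3 states, at 2.25 in sleep deprivation, 2.24 in waking and 2.28 in sleep. Nsdhl, which removes the C4 carboxyl group, was 4.11-fold higher, and Dhcr7, the reductase of the last step in 1 branch, 3.40-fold. Tm7sf2 (sterol C14-reductase) was 3.29-fold higher, Sc5d (sterol C5-desaturase) 2.76-fold and Cyp51 (lanosterol demethylase) 2.03-fold. Hsd17b7, the 3-ketosteroid reductase, and Ebp, the sterol isomerase, did not pass. Their intervals are relative to the median gene, while the adjusted p is for the difference as deposited. Hsd17b7 averaged 8.46 ± 0.48 (SD, n = 18) in bound arrays and 8.70 ± 0.20 (SD, n = 6) in unbound pools (relative difference -0.40, 95% interval -0.77 to -0.03, adjusted p = 0.257). Ebp averaged 7.73 ± 0.45 in bound arrays and 7.44 ± 0.39 in unbound pools (0.13, -0.24 to 0.50, adjusted p = 0.176).

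Among the 5 sterol sensing genes, 4 were higher in the bound fraction. Srebf1, which encodes SREBP-1, lay at 8.44, 9.09 and 9.93 in bound arrays, against 5.41, 5.99 and 7.13 in unbound pools. The ranges did not overlap, and the relative difference was 2.87 (SE 0.22, 7.31-fold, adjusted p = 9.45e-11). Srebf2, which encodes SREBP-2, lay at 8.34, 10.20 and 11.11 in bound arrays and at 7.77, 8.31 and 8.65 in unbound pools. Those ranges overlapped, and the difference of 1.55 had an SE of 0.40 (adjusted p = 0.000667). Scap was 1.98-fold higher and Insig1 2.34-fold. The other INSIG gene, Insig2, went the other way, without a call for the difference as deposited. It averaged 9.11 ± 0.35 (SD, n = 18) in bound arrays and 9.36 ± 0.52 (SD, n = 6) in unbound pools (-0.41, SE 0.16, adjusted p = 0.165), and its other 2 probe sets gave -0.44 and -0.38. Nr1h3, the gene of LXR alpha, was 5.83-fold higher, with 7.04, 8.34 and 9.77 in bound arrays and 5.23, 5.66 and 5.9 in unbound pools.

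The export genes were split. Apoe, the main apolipoprotein of brain lipoproteins, lay at 11.72, 12.72 and 13.85 in bound arrays and at 7.25, 7.63 and 7.94 in unbound pools (relative difference 4.94, SE 0.41, adjusted p = 4.71e-10). Abca1, the transporter that loads lipid onto lipid-poor apolipoprotein, was 4.48-fold higher, at 8.6, 9.06 and 9.70 in bound arrays and 6.23, 6.77 and 7.54 in unbound pools. Abcg1, the transporter to lipidated particles, was lower in the bound fraction, at 5.72, 6.49 and 7.23, against 8.30, 8.61 and 8.87 in unbound pools. Every bound array lay below every unbound pool, and Abcg1 fell by 2.25 on the log2 scale (SE 0.15, 4.74-fold lower, adjusted p = 7.73e-11). Its second, dimmer probe set gave -2.38.

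The 3 genes of sterol transport inside the cell were split as well. Npc2, the lysosomal lumen protein that binds cholesterol, was 3.35-fold higher, with the narrowest spread within the bound groups of the 29 (pooled SD 0.07, against a median of 0.34). Npc1, its membrane partner, was 2.04-fold higher. Stard4, a cytosolic sterol carrier, was lower in the bound fraction, at 7.95, 8.68 and 9.77, against 9.24, 9.39 and 9.48 in unbound pools (-0.82, SE 0.17, adjusted p = 0.00187). The ranges overlapped. The other 2 Stard4 probe sets gave 0.08 and -0.41, neither called.

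Calls were also made within single states. In sleep deprivation 24 genes were higher and 2 lower (all genes, 33.9% and 19.1%), in waking 21 and 3 (27.1% and 23.1%), and in sleep 23 and 1 (33.7% and 18.6%). Of the 26 genes called over the mean of states, 25 were called in each of 31 alternative settings. Hmgcs1 was the exception, and none changed sign. Over the mean of states, the lowest relative difference among the alternatives was 0.20 for Scap and 0.57 for both Msmo1 and Cyp51. Within states, calls of Lss, Srebf2, Stard4, Insig2, Hmgcs1, Cyp51, Scap and Tm7sf2 were lost in some alternatives. Srebf2 in sleep deprivation lost its call in 9 of 15 alternatives, Lss in waking in 8 of 15 and Insig2 in waking in 8 of 15. Hmgcs1 in sleep lost it in 3 of 15 and Cyp51 in waking in 2 of 15. Scap in waking and in sleep, and Tm7sf2 in waking, each lost it in 1 of 15.

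Of the 29 genes, 18 had further probe sets, 33 in all. Of the 24 at or above the median level of all probe sets (5.79), 21 had the sign of the probe set used, and of the 9 dimmer ones, 4 did. The exceptions among the brighter ones belong to Hsd17b7 (0.69), Cyp51 (-0.14) and Stard4 (0.08). The dim probe sets of Msmo1 (-1.18), Scap (-0.66) and Npc2 (-0.68) had the opposite sign. The probe sets used for Fdft1, Hsd17b7, Lss and Mvd have names of the kind given to probes that can match transcripts of more than 1 gene.

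**Figure D2:**
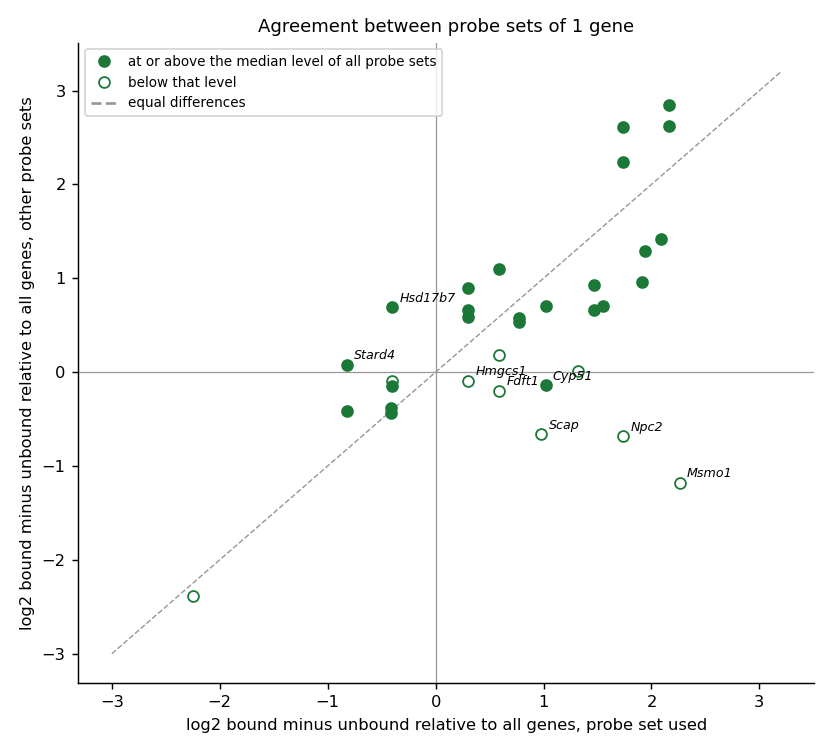
Bound minus unbound difference (log2, relative to the median of all genes) of the probe set used for a gene, x axis, and of each further probe set of the same gene, y axis. Filled points are probe sets at or above the median level of 5.79 and open points dimmer ones; genes whose points lie in quadrants of opposite sign are named.

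Some of these genes differed more between sets of animals than between states. Animals 4 to 6 and animals 1 to 3 of the bound fraction (9 arrays each, 3 per state) differed in 18 of the 29 genes, 8 higher and 10 lower in animals 4 to 6. Of all genes, 22.9% passed as higher and 21.0% as lower. In 7 of the 29 genes the sets did not overlap, as in 12.4% of all genes. Apoe lay between 11.72 and 11.93 in animals 4 to 6, against 13.52 to 13.85 in animals 1 to 3. The relative difference was -1.89 (SE 0.05, adjusted p = 3.32e-13), whereas the unbound pools of the same animals averaged 7.56 and 7.72. Srebf2 ran from 8.34 to 9.88 in animals 4 to 6 and from 10.52 to 11.11 in animals 1 to 3 (-1.69, SE 0.15, adjusted p = 7.3e-08). Nsdhl (-0.95), Srebf1 (-0.90) and Tm7sf2 (-0.87) were also lower without overlap, and Lss (0.71) and Insig2 (0.59) higher. Nr1h3 (-1.08) and Mvk (-0.91) were lower with some overlap. The mean level of the 8 astrocyte markers was 12.04 to 12.17 in animals 4 to 6 and 12.15 to 12.38 in animals 1 to 3. That of the 4 choroid plexus markers was 4.84, 9.93 and 10.40 (lowest, median and highest) in animals 4 to 6 and 5.70, 7.31 and 10.42 in animals 1 to 3, and that of the 8 neuronal markers 10.09, 10.26 and 10.35 in animals 4 to 6 and 9.87, 10.11 and 10.49 in animals 1 to 3. The part of either list in these differences was not tested. What the sets differ in was not tested, and the labels give only the numbers of the animals.

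The difference between fractions was also taken within each set, as a description with no test. For Apoe it was 4.05 in animals 4 to 6 and 5.83 in animals 1 to 3, and for Srebf2 0.44 and 2.66. In the same order, the other genes whose sets did not overlap gave 1.47 and 2.6 (Nsdhl), 2.26 and 3.48 (Srebf1) and 1.18 and 2.26 (Tm7sf2). Lss gave 1.25 and 0.29, and Insig2 -0.25 and -0.57. In both sets 24 of the 29 genes lay above the median gene, and Insig2, Abcg1 and Stard4 lay below it in both. Hsd17b7 and Ebp lay on different sides.

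**Figure D3:**
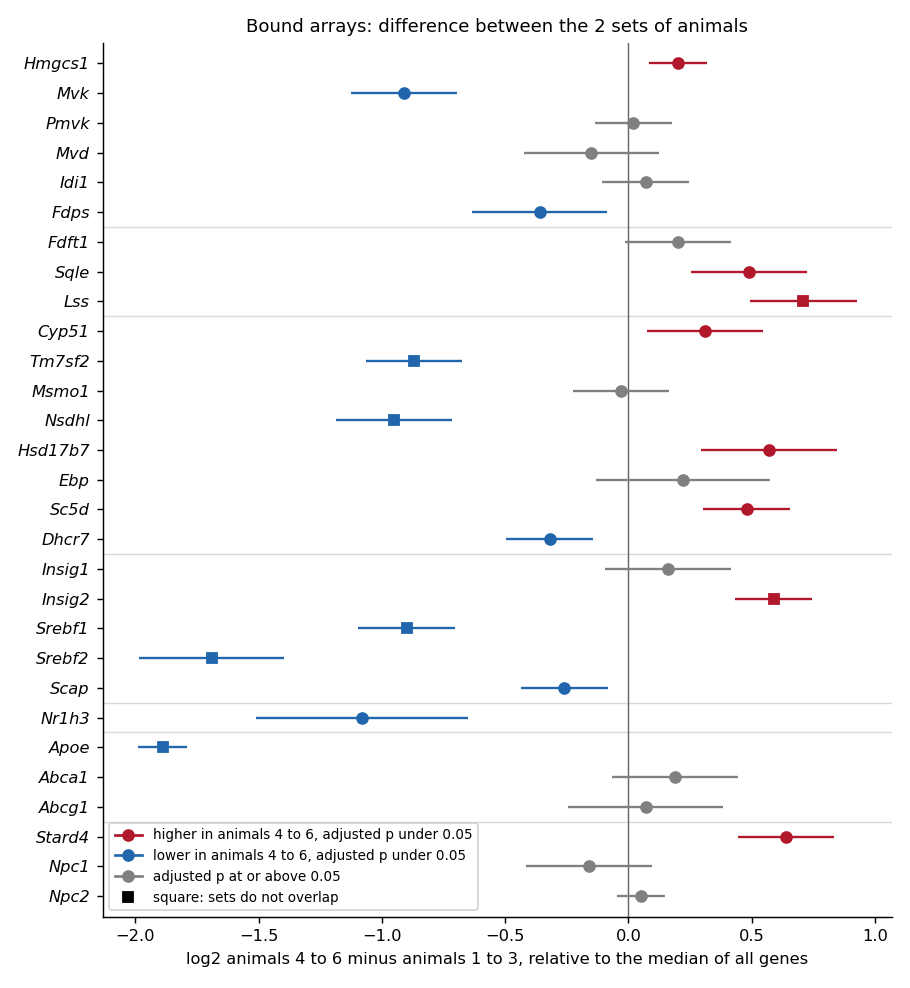
Difference between bound arrays of animals 4 to 6 and of animals 1 to 3 (log2, relative to the median of all genes) with its 95% interval, by gene. Squares mark the 7 genes whose sets do not overlap (12.4% of all genes do not); Apoe (-1.89) and Srebf2 (-1.69) lie farthest left and Lss (0.71) farthest right.

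The second comparison asked which of these transcripts on astrocyte ribosomes differ between states. In the bound fraction few of the listed genes were called. After sleep deprivation against sleep, 1 of the 29 genes was higher and 0 lower, against 12.3% and 2.02% of all genes. The median of the list was -0.15 and 8 of the 29 lay above the median gene. In waking against sleep 0 were higher and 1 lower (all genes, 9.07% and 2.14%), with a median of -0.05. In sleep deprivation against waking 1 was higher and 0 lower (4.17% and 2.67%), with a median of 0.01. The differences of the 29 genes ran from -0.77 (Stard4) to 0.61 (Pmvk) after sleep deprivation against sleep, from -0.76 (Stard4) to 0.42 (Ebp) in waking against sleep, and from -0.49 (Ebp) to 0.69 (Mvk) in sleep deprivation against waking. The median difference of the 4 choroid plexus markers was -1.31 after sleep deprivation and -1.06 in waking, both against sleep, with none called, and their part was not tested. At an unadjusted p under 0.05, limma gave 3, 4 and 4 of the 29 genes in these 3 comparisons, against 26.4%, 23.1% and 18.7% of all genes. Quantile normalization repeated over the arrays changed the background for sleep deprivation against sleep to 964 genes higher and 764 lower, in place of 2230 and 367. The background also holds genes below the median level of all probe sets. Without them it was 288 higher and 46 lower for that comparison, with 1 and 0 of the list. For waking against sleep it was 113 and 29 in place of 1650 and 389, with 0 and 0 of the list.

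**Figure D4:**
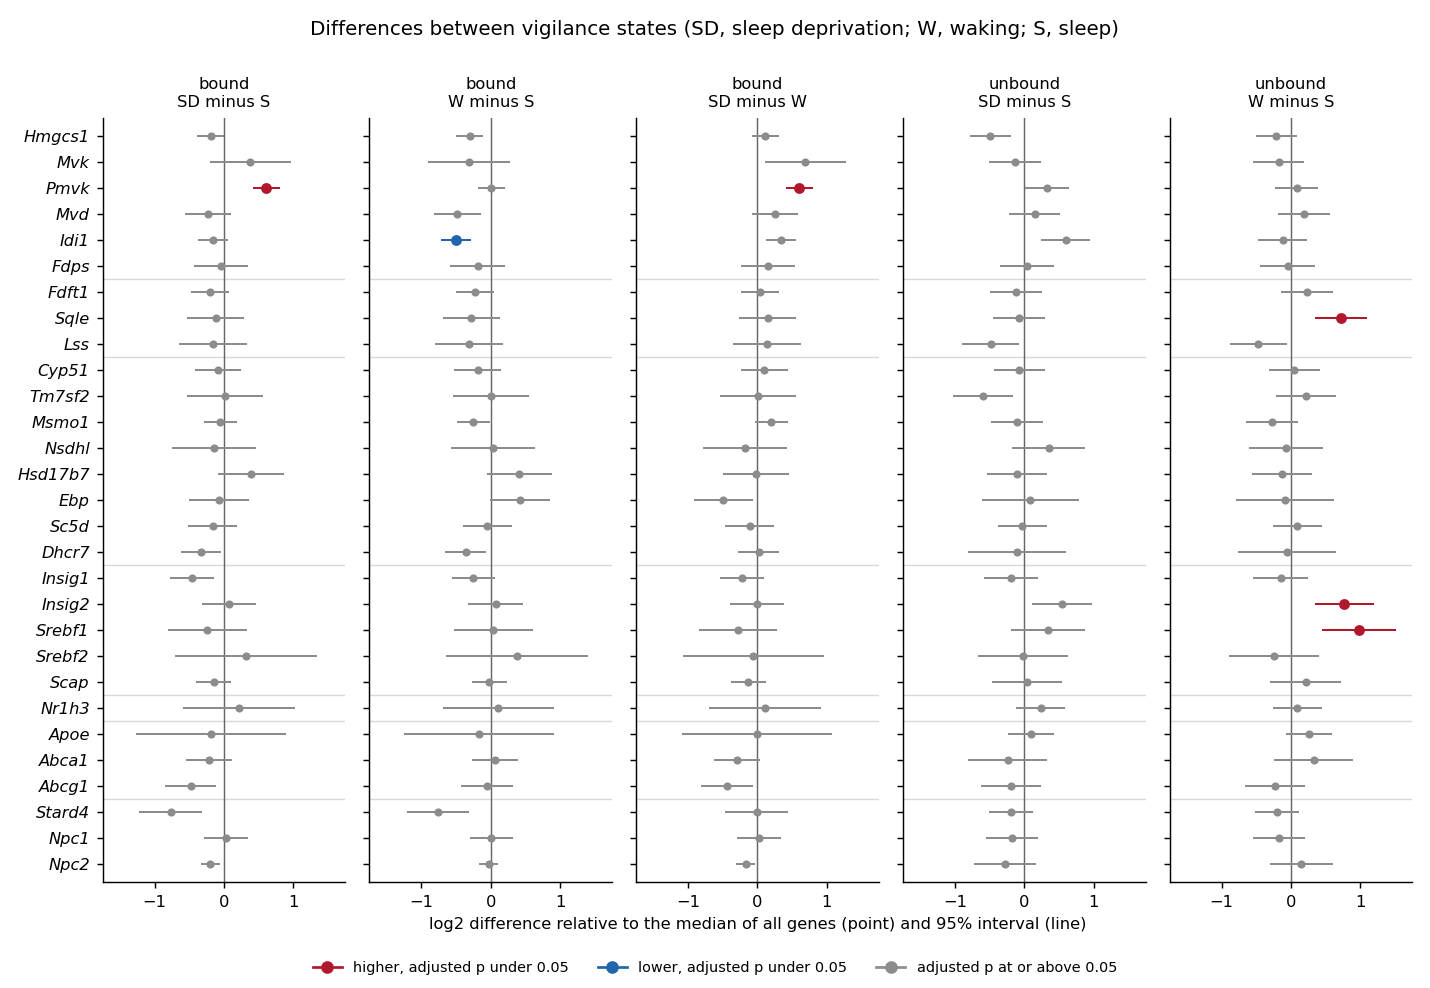
Differences between states for the 29 genes, in columns for the bound (3 comparisons) and unbound fraction (2 comparisons), log2 relative to the median of all genes with 95% intervals. Coloured points passed the adjusted threshold: Pmvk in both bound comparisons of sleep deprivation, Idi1 in bound waking against sleep, and Sqle, Insig2 and Srebf1 in unbound waking against sleep.

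Pmvk, which adds the second phosphate to mevalonate, was the gene that rose after sleep deprivation. Its bound levels were 11.94, 12.25 and 12.38 after sleep deprivation (lowest, median and highest of 6 animals), 11.42, 11.54 and 11.88 in waking, and 11.29, 11.50 and 11.61 in sleep. The 6 sleep-deprived animals all lay above all 12 others. Against sleep the relative difference was 0.61 (SE 0.10, 1.53-fold, adjusted p = 0.000114), and against waking 0.60 (SE 0.10, 1.52-fold, adjusted p = 0.000818). Waking did not differ from sleep beyond the spread (0.01, 95% interval -0.19 to 0.21, adjusted p = 0.661). The rise against sleep was found in animals 4 to 6 alone (0.56, adjusted p = 0.0376) and in animals 1 to 3 alone (0.65, adjusted p = 0.0129), and it passed in all 22 alternatives. The rise against waking was not called in animals 4 to 6 alone (0.50, adjusted p = 0.138). The unbound pools had the same order of means, with 10.70 and 10.72 after sleep deprivation, 10.55 and 10.63 in waking, and 10.08 and 10.33 in sleep. The difference between sleep deprivation and sleep there was 0.33 (SE 0.16, adjusted p = 0.129), and the difference of the 2 effects between fractions was 0.28 (SE 0.19, adjusted p = 0.685). Pmvk rests on 1 probe set.

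Idi1 fell in waking against sleep. Bound levels were 11.62, 11.78 and 12.09 after sleep deprivation, 11.22, 11.50 and 11.71 in waking, and 11.75, 11.90 and 12.04 in sleep. The 6 waking animals lay below the 6 sleeping ones (-0.50, SE 0.11, 1.42-fold lower, adjusted p = 0.0223), and sleep deprivation did not differ from sleep beyond the spread (-0.16, 95% interval -0.38 to 0.06). In animals 4 to 6 alone the waking difference was -0.32 (adjusted p = 0.425), and in animals 1 to 3 alone -0.69 (adjusted p = 0.0419). The call was lost in 6 of 22 alternatives, among them the removal of sleep animal 1 (adjusted p = 0.051), waking animal 2 (0.053) or waking animal 3 (0.055). The second Idi1 probe set gave -0.25 (adjusted p = 0.797). Sleep deprivation against waking gave 0.34 (adjusted p = 0.0606), which passed with the replicate number (adjusted p = 0.0367) or the set of animals as a block (0.0328). It also passed with array weights (0.0381), without waking animal 4 (0.0459) and without sleep-deprived animal 5 (0.0453). In animals 4 to 6 alone that difference was 0.14 (adjusted p = 0.607), and in animals 1 to 3 alone 0.53 (adjusted p = 0.0675).

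Windows around the RefSeq starts of these genes are shown because they are the synthesis genes called between states in the bound fraction. That of Hmgcs1 was added, after its values were seen, because it alone on the list held the sterol element searched for. The windows are from RefSeq on build GRCm38.p6, 250 bases before to 50 after the start, 5′ to 3′ on the gene's strand, with motif letters in capitals. RefSeq lists 2 starts for Pmvk. The lines are Hmgcs1 at chr13:119690101-119690400, Pmvk at chr3:89454291-89454590 (first start) and chr3:89459321-89459620 (second start), and Idi1 at chr13:8885356-8885655, all on the plus strand.
Hmgcs1: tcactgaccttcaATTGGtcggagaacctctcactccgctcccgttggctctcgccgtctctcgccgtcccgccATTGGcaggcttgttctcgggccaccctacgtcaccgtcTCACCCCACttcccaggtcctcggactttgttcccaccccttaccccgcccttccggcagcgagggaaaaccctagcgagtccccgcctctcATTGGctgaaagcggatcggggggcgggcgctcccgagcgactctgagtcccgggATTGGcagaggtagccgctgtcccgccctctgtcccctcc
Pmvk, first start: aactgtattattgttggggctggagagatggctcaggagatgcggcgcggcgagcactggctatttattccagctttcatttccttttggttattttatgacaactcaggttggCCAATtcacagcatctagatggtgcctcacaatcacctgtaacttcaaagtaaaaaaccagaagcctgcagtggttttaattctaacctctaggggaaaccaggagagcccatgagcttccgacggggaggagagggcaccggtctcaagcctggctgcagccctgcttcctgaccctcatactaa
Pmvk, second start: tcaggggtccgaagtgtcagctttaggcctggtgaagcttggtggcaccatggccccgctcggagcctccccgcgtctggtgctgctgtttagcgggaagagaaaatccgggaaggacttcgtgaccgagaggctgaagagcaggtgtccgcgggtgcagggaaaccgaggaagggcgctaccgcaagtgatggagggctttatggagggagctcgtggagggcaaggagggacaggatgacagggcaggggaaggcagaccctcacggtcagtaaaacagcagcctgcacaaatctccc
Idi1: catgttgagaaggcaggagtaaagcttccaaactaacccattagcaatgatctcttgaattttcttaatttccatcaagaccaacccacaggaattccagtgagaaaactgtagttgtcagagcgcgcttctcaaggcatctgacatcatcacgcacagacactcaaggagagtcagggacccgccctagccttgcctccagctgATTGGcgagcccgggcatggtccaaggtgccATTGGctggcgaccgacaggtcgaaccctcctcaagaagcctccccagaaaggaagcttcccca
Searched on both strands were the sterol regulatory element TCACNCCAC, the NF-Y box CCAAT and the E-box CACGTG, which do not contain each other. The Hmgcs1 window holds 1 sterol element at position -137 from the start and 4 CCAAT boxes, which read ATTGG on the printed strand. The Idi1 window holds 2 CCAAT boxes, at positions -45 and -14, and the first Pmvk window 1, at position -136. The second Pmvk window holds none of the 3 motifs. In it an atg with a long open reading frame lies before the listed start. That window may therefore include coding sequence, and it does not show that the Pmvk promoter lacks the motifs. Of the 25 listed genes with a window in the table, 1 held the sterol element, 19 a CCAAT box and 6 an E-box, against 1.44%, 41.1% and 8.09% of 27025 genes. These are matches of letters only. Sqle, Stard4, Abcg1, Fdps, Fdft1 and Npc1 were not in the table used, and Insig2 and Srebf1, called only in the unbound fraction, are not shown.

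Stard4 and Mvk were not called as reported and passed with the replicate number or the set of animals as a block. Stard4 passed in 9 of 22 alternatives after sleep deprivation and in 7 of 22 in waking, among them, with no block, the mean of its probe sets (adjusted p = 0.00864 and 0.0309) and centring (0.0432 and 0.0499). Stard4 lay at 8.13, 8.48 and 9.0 after sleep deprivation, 7.95, 8.4 and 9.24 in waking, and 8.66, 9.13 and 9.77 in sleep. The groups overlapped, and the relative differences against sleep were -0.77 after sleep deprivation (SE 0.23, adjusted p = 0.06) and -0.76 in waking (SE 0.23, adjusted p = 0.065). With the replicate number as a block the adjusted p was 0.00572 and 0.00647, and with the set as a block 0.00106 and 0.00116. In animals 4 to 6 alone the differences were -0.88 (adjusted p = 0.0717) and -0.68 (adjusted p = 0.162), and in animals 1 to 3 alone -0.68 (adjusted p = 0.0286) and -0.86 (adjusted p = 0.0155). The other 2 probe sets gave -0.52 and -0.46 after sleep deprivation and -0.14 and -0.55 in waking, none called. Removing sleep animal 2 brought both differences past the threshold (adjusted p = 0.0394 and 0.0439), as did removing sleep-deprived animal 6 for the first (0.0378) and waking animal 4 for the second (0.0189).

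Mvk lay at 9.5, 10.03 and 10.96 after sleep deprivation, 8.95, 9.36 and 10.01 in waking, and 8.81, 9.74 and 10.27 in sleep. The groups overlapped, with the 2 sets of animals apart inside each. Sleep deprivation against waking gave 0.69 (SE 0.30, adjusted p = 0.183), which became 0.00234 with the replicate number and 0.00235 with the set as a block. Against sleep it gave 0.38 (SE 0.30, adjusted p = 0.323), with 0.00977 and 0.0145 under the same blocks. In animals 4 to 6 alone the differences were 0.57 against waking (adjusted p = 0.145) and 0.40 against sleep (adjusted p = 0.121). In animals 1 to 3 alone they were 0.80 (adjusted p = 0.0637) and 0.36 (adjusted p = 0.201). The second Mvk probe set passed without a block, at 0.78 against waking (adjusted p = 0.0133) and 0.58 against sleep (adjusted p = 0.0193). Hsd17b7 after sleep deprivation (0.39, adjusted p = 0.191) passed with the set as a block alone (adjusted p = 0.0438). With these blocks the count of listed genes called after sleep deprivation against sleep was 3 with the replicate number and 4 with the set. The counts over all genes rose too, from 2230 higher and 367 lower. They were 3227 and 654 with the replicate number, and 3425 and 677 with the set.

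None of the sensing, LXR and export genes was called between states of the bound fraction by the probe set used and without a block. With the mean of a gene's probe sets, Scap was called after sleep deprivation (0.18, adjusted p = 0.0213) and in waking (0.19, adjusted p = 0.0325), where the probe set used gave -0.15 and -0.02, both against sleep. Insig1, itself a target of the SREBP factors and the brake on them, lay at 10.72, 10.97 and 11.37 after sleep deprivation, 10.74, 11.20 and 11.61 in waking, and 10.89, 11.37 and 11.63 in sleep. Its relative difference after sleep deprivation was -0.46 (SE 0.16, adjusted p = 0.171), with -0.75 in animals 4 to 6 alone (adjusted p = 0.0385) and -0.19 in animals 1 to 3 alone (adjusted p = 0.816). Srebf1 gave -0.24 (95% interval -0.80 to 0.32) after sleep deprivation and 0.04 (-0.53 to 0.60) in waking. Apoe gave -0.19 after sleep deprivation, with an SE of 0.55 and a 95% interval of -1.26 to 0.89. With the set of animals as a block the same difference had an SE of 0.07 and an adjusted p of 0.466. Abcg1 gave -0.48 after sleep deprivation (adjusted p = 0.24), while its dim second probe set (mean level 4.27) gave -1.49 (adjusted p = 3.53e-06) and -1.33 in waking (adjusted p = 1.17e-05). The mean of both probe sets gave -1.0 (adjusted p = 5.42e-05) and -0.70 (adjusted p = 0.00197).

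**Figure D5:**
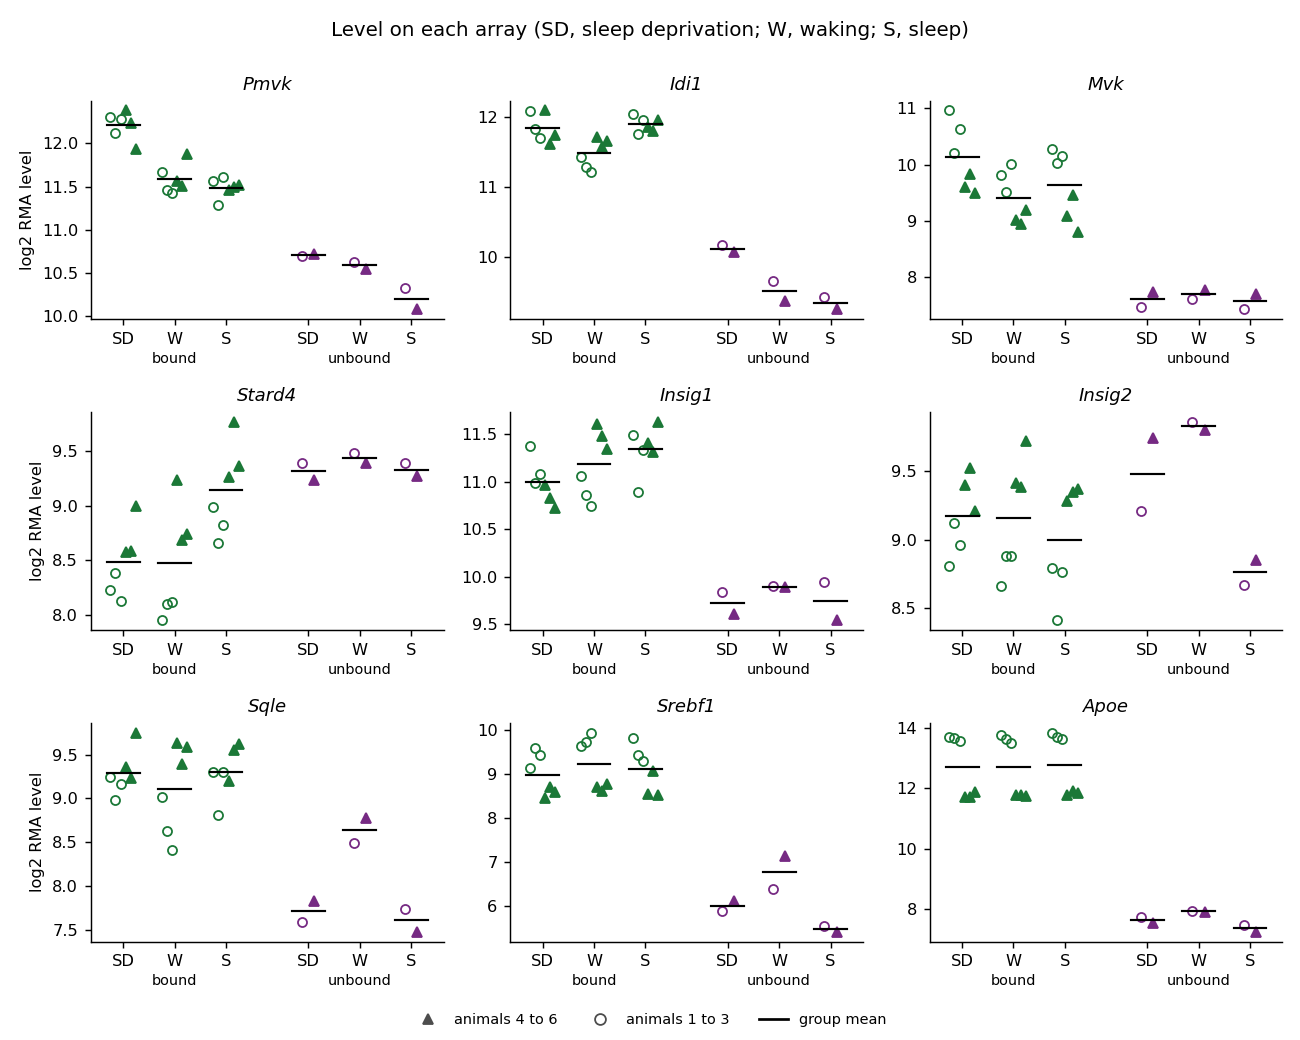
Log2 level on each array for 9 of the genes, in bound arrays (single animals, green) and unbound pools (purple), by state; triangles are animals 4 to 6, open circles animals 1 to 3, and black lines group means. The sleep-deprived animals lie above all others for Pmvk, the waking animals below the sleeping ones for Idi1, and Apoe falls into 2 bands by set of animals.

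In the unbound fraction, with 2 pools per state, 0 of the 29 genes were called after sleep deprivation against sleep by limma (all genes, 1.42% higher and 0.451% lower), and 3 had an unadjusted p under 0.05, as had 25.3% of all genes. Waking against sleep gave 3 higher and 0 lower (5.71% and 0.605%). Sqle stood at 8.49 and 8.78 in waking and at 7.48 and 7.74 in sleep (0.72, SE 0.19, adjusted p = 0.0434). Insig2 stood at 9.80 and 9.86 in waking and at 8.67 and 8.85 in sleep (0.77, SE 0.22, adjusted p = 0.0459), but its other 2 probe sets gave 0.25 and -0.37. Srebf1 stood at 6.38 and 7.13 in waking and at 5.41 and 5.54 in sleep (0.98, SE 0.27, adjusted p = 0.048). The pools did not overlap in any of the 3 genes, which adds no support, since the genes were picked by the same values. The share over all genes was not computed. The mean level of the 8 astrocyte markers in the same pools was 9.23 to 9.24 in waking, against 8.67 in sleep, and its part in these differences was not tested. The calls were lost in 9, 10 and 9 of 11 alternatives, including the loss of any 1 of the 4 pools, under which 0 genes of the whole array were called.

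Whether a state changed the bound fraction by more or less than the unbound was tested for each gene as a difference of effects. For sleep deprivation 0 of the 29 genes were higher and 1 lower (2.91% and 1.98% of all genes). The gene was Idi1, which had 10.07 and 10.18 in the sleep-deprived unbound pools and 9.26 and 9.43 in the sleeping ones (0.60, SE 0.18, adjusted p = 0.0746), beside the difference of -0.16 in the bound fraction. The difference between the effects was -0.76 (SE 0.22, adjusted p = 0.0289), and the call was lost in 8 of 23 alternatives, with each of the 4 pools left out among them. With the mean of a gene's probe sets, Abcg1 was called (-0.80, adjusted p = 0.0488) and Idi1 was not (-0.51, adjusted p = 0.402). For waking 0 genes were called in either direction by limma (1.89% higher and 3.71% lower of all genes), and 7 of the 29 had an unadjusted p under 0.05, as had 18.2% of all genes. Sqle came closest, at -0.99 (SE 0.39, adjusted p = 0.0754), and passed, as did Insig2, with the set of animals as a block (adjusted p = 0.0176 and 0.018). Neither passed with bound arrays averaged per pool and the pool as a block (adjusted p = 0.285 and 0.385). Sqle also passed without waking animal 4 (0.0457) or waking animal 6 (0.0495). With the mean of a gene's probe sets, Abcg1 (-0.97, adjusted p = 0.00647) and Stard4 (-0.62, adjusted p = 0.0348) passed. Array weights brought Sqle (-0.98, adjusted p = 0.0237), Mvd (-0.72, adjusted p = 0.0343) and Idi1 (-0.40, adjusted p = 0.0414) past the threshold.

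Other genes of the pathway were read from lists chosen by function. Of 31 such genes 28 were measured, of which 14 passed as higher in bound arrays and 6 as lower, with a median difference of 0.23. Over all genes, 42.2% passed as higher and 27.2% as lower. Lcat, the enzyme that esterifies cholesterol on lipoproteins, was higher by 4.39, and Clu, another apolipoprotein made by astrocytes, by 2.05. Vldlr, a receptor for lipoproteins (-2.21), and Cyp46a1, the neuronal hydroxylase that turns cholesterol into an exportable oxysterol (-1.34), were lower. Between states in the bound fraction, Rxra, a partner of the LXR receptors, averaged 8.76 after sleep deprivation and 8.10 in sleep (0.55, SE 0.11, adjusted p = 0.000436). Rxra was also higher in the unbound pools, 2 per state, after sleep deprivation (0.87, adjusted p = 0.0439) and in waking (0.58, adjusted p = 0.0403). Neither of these calls held with the pool number as a block, under which 0 genes of the whole array were called in either comparison. Cyp27a1, which makes another oxysterol, averaged 5.05 after sleep deprivation, 5.83 in waking and 5.81 in sleep (-0.88 against sleep, SE 0.17, adjusted p = 0.00586; -0.80 against waking, adjusted p = 0.00941), at a level near the median of all probe sets. Mylip, the ligase that degrades lipoprotein receptors, was lower after sleep deprivation than in waking (-0.81, adjusted p = 0.027), and Rxrb higher in waking than in sleep (0.44, adjusted p = 0.025). In total 1 of the 28 was higher and 1 lower after sleep deprivation against sleep (all genes, 12.3% and 2.02%). The counts were 1 and 0 in waking against sleep (9.07% and 2.14%), and 0 and 2 in sleep deprivation against waking (4.17% and 2.67%). The 10 fatty acid genes that SREBP factors also control had 8 higher and 1 lower in the bound fraction, among them Fads2 (4.02), Fads1 (2.12) and Scd1 (1.86), with Elovl6 (-0.82) the lower one. By limma 0 of the 10 were called in any comparison of states.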

How the data were processed

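Per the submitters' processing notes the deposited values are log2 RMA values of Affymetrix Mouse Genome 430 2.0 arrays. The RMA version and which arrays were normalized together are not given in the sources used here. Of 45101 probe sets on 24 arrays, 64 were controls, 9160 had no symbol in the platform table and 932 had more than 1. The other 34945 gave 18193 genes, and the brightest probe set on average stood for its gene.

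Models were fitted with lmFit and eBayes in limma 3.58.1 under R 4.3.3, with 6 groups over all 24 arrays for comparisons of fractions and for differences of effects, and with 3 groups within a fraction for states. A difference relative to all genes is the fitted difference minus its median over all genes, and 95% intervals are that value plus or minus the normal quantile times the SE. The number of arrays limits the precision.

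Bound arrays with the same replicate number in different states, each a different animal, correlated in their residuals in all 18 pairs (0.268 to 0.53). After the set of animals had been removed, the correlations were -0.287 to 0.127. Pairs with different numbers were not computed, so these values cannot say whether the numbers pair the arrays beyond the set. The 6 unbound pairs gave 0.001 to 0.029. Nothing but the numbers says that animals of 1 number share a day or litter. Models without a block are reported, and the block is given where it changes a call. Further alternatives were omission of genes below the median level, averaging over a gene's probe sets, repeated quantile normalization, centring, array weights, other arrays for the spread, each set of animals alone, and each array left out.

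The named genes are all listed members, with other pathway genes as counts and examples. Members and lists were chosen with earlier results of these data known. Promoter windows came from a RefSeq table on GRCm38.p6. Some genes of the pathway are not reported here. Tables and figures were made with Python 3.11.15, pandas 2.3.3, numpy 2.4.6 and matplotlib 3.10.9.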

Additional observations from a re-analysis of the deposited data

Results flagged for a closer look

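In 87 groups of 6 bound arrays (29 genes in 3 states), 2 held an array far from the other 5. By chance about 1 in 20 groups would, a rate that 2 of 87 did not exceed. Cyp51 lay at 9.80 in sleep animal 2, below the next lowest sleep array at 10.36. Npc1 lay at 9.66 in sleep-deprived animal 3, below the next lowest at 10.09. Both animals belong to animals 1 to 3. The effect of sleep deprivation on Idi1 differed between fractions by -0.76 (limma, adjusted p = 0.0289), with 11.84 in sleep-deprived and 11.89 in sleeping bound arrays and 10.12 and 9.34 in the unbound pools.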

How the results depend on the processing

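Counts of listed genes called between fractions stayed within 1.5 times of those reported under every alternative run, and no called gene changed sign. Of 2038 recomputed values of 107 single-gene calls, 1941 still passed and 97 did not. For bound sleep deprivation against sleep (1 gene reported) they were 4 with the mean of probe sets, 2 with repeated quantile normalization, 2 with centring, 3 with the replicate block, 4 with the set of animals as a block, 2 in animals 4 to 6 alone, 2 in animals 1 to 3 alone, 2 with only the 2 groups compared, and 1 to 2 with an array left out. For bound waking against sleep (1) they were 0 without dim genes, 3 with the mean of probe sets, 2 with centring, 2 with the replicate block, 2 with the set as a block, 0 in animals 4 to 6 alone, 2 in animals 1 to 3 alone, and 0 to 2 with an array left out. For bound sleep deprivation against waking (1) they were 2 with array weights, 3 with the replicate block, 3 with the set as a block, 0 in animals 4 to 6 alone, and 1 to 2 with an array left out. For unbound sleep deprivation against sleep (0) the count was 1 with the spread of all 24 arrays. For unbound waking against sleep (3) it was 0 without dim genes, with repeated quantile normalization, with centring, with the pool number as replicate block, with the spread of all 24 arrays, and with any pool left out. For the difference of effects of sleep deprivation (1) it was 0 without dim genes, 0 with repeated quantile normalization, 0 with bound arrays averaged per pool and the pool as replicate block, and 0 to 1 with an array left out. For that of waking (0) it was 2 with the mean of probe sets, 3 with array weights, 2 with the set as replicate block, and 0 to 1 with an array left out. Beyond the calls given above, the set as replicate block added 1 gene between fractions (27 in place of 26), averaging bound arrays per pool cost within-state calls of Lss, Srebf2, Stard4, Insig2 and Hmgcs1, and blocks changed no other call over the mean of states or between states.

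Over all genes, higher and lower, bound sleep deprivation against sleep had 2230 and 367 (85.9% higher), 288 and 46 without dim genes, 964 and 764 (55.8%) with repeated quantile normalization, 1316 and 587 (69.2%) with centring, 3425 and 677 with the set as a block, 993 and 141 in animals 4 to 6 alone and 1223 and 253 in animals 1 to 3 alone. Bound waking against sleep had 1650 and 389 (80.9%), 113 and 29 without dim genes, 742 and 633 (54.0%) with repeated quantile normalization, 1055 and 571 (64.9%) with centring, 2399 and 665 with the replicate block, 2633 and 752 with the set as a block, 514 and 124 in animals 4 to 6 alone and 749 and 188 in animals 1 to 3 alone. Bound sleep deprivation against waking had 759 and 485, 60 and 16 without dim genes, 1186 and 727 with the replicate block, 1329 and 835 with the set as a block, 90 and 53 in animals 4 to 6 alone and 338 and 247 in animals 1 to 3 alone. Unbound sleep deprivation against sleep had 259 and 82 (76.0%), 65 and 69 (48.5%) with repeated quantile normalization, 76 and 77 (49.7%) with centring, 452 and 116 with the mean of probe sets, 734 and 265 with the spread of all 24 arrays, and 0 without dim genes, with the pool block or with a pool left out. Unbound waking against sleep had 1039 and 110, 124 and 6 without dim genes, 1841 and 190 with the mean of probe sets, and 0 with repeated quantile normalization, centring, the pool block or a pool left out. The difference of effects of sleep deprivation had 529 and 361, 9 and 13 without dim genes, 850 and 696 with array weights and 0 with bound arrays averaged per pool. That of waking had 343 and 675 (33.7%), 2 and 35 without dim genes, 502 and 426 (54.1%) with repeated quantile normalization, 624 and 255 (71.0%) with centring, 533 and 1289 with array weights, 438 and 1020 with the set block and 0 with bound arrays averaged per pool. With centring the share higher in the bound fraction was 40.6% in sleep deprivation, 42.2% in waking and 37.9% in sleep, in place of 63.9%, 54.0% and 64.5%. The causes were not tested.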
